A study of Mus musculus with 4 samples.

Results

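Liver from a catalase-knockout mouse sample kept on a high-fat diet was set against liver from a wild-type sample kept on a normal diet, so that genotype and diet changed together. This comparison uses 2 of the 4 arrays of the series, chosen by their labels alone, and takes the log2 signal of the knockout high-fat array minus that of the wild-type normal-diet array. All livers came from male mice, which ate their diet for 11 weeks starting at 29 weeks and ending at 40 weeks of age. CKO_HFD is the catalase knockout on high-fat diet (60.3% of calories from fat), CKO_ND the catalase knockout on normal diet (18% of calories from fat), WT_HFD the wild type on high-fat diet and WT_ND the wild type on normal diet. CKO_HFD and WT_ND form the comparison, and CKO_ND and WT_HFD, in which 1 of the factors changed, are given beside them as values. The sources used here do not give the knockout allele, the strain of the mice or whether a sample was 1 animal or a pool.

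There was 1 array per group, so no difference has a replicate check, and no test across animals was possible. Signals are given on a linear scale on which the 75th percentile of each array equals 1000, and each log2 difference carries the error of the scanner's own error model, which covers the measurement of spots and not the spread between animals. A value in brackets after signals is the log2 difference of CKO_HFD minus WT_ND, with that error where it is given. A gene is said to have risen or fallen when it differed by 2-fold or more between CKO_HFD and WT_ND. A probe not well above background on 1 of the arrays gives only a bound, taken with the dim array at its lowest signal well above background, or at the signal of the probe where that was higher, and such a gene is given as at least N-fold higher or lower. Each bound holds for the processed signal of that probe: normexp background correction, which adds 50 to every corrected signal, draws the differences of dim probes towards 0 by its construction. Of 132 named genes past 2-fold, 37 moved by over 1.5-fold and 15 fell short of 2-fold with normexp, and 8 moved and 3 fell short with the mean of all probes of a gene. Signals of different genes come from different probes and are not compared with each other.

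Catalase is the peroxisomal enzyme that breaks hydrogen peroxide into water and oxygen. Peroxisomes make hydrogen peroxide when they oxidise very long chain fatty acids, and the liver is among the tissues richest in catalase. In mouse liver a high-fat diet is known to fill hepatocytes with lipid droplets, to activate the fatty acid receptor PPARalpha and, with time, to bring macrophage accumulation and matrix deposition.

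The targeted gene was read first. Cat had a signal of 1928 in CKO_HFD, 2196 in CKO_ND, 26999 in WT_HFD and 29714 in WT_ND, a log2 difference of -3.95 ± 0.20 between CKO_HFD and WT_ND, or 15.4-fold lower. Both knockout arrays lay far below both wild-type arrays, and the other Cat probe measured on both arrays fell too. Where the probes lie relative to the deleted part of the gene was not tested, and the remaining knockout signal was well above background.

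Of 20886 genes named on the array, 15091 were well above background on at least 1 of CKO_HFD and WT_ND, and 13964 on both. Among the 15091 genes, 609 rose (4.04%) and 575 fell (3.81%), of which 156 and 187 were calls by a bound. Among the 13964 measured on both arrays, 453 rose (3.24%) and 388 fell (2.78%). At 4-fold or more, 127 genes were higher and 131 lower, and at 8-fold or more 36 were higher and 27 lower. The median log2 difference of all genes measured on both arrays was -0.07, against a typical scanner error of 0.20, and the middle of the distribution ran from -0.28 (25th percentile) to 0.18 (75th percentile). The difference leaned with brightness: the median was -0.16 over the brightest 3491 genes and -0.03 over the dimmest 3491. The 2-fold line runs through a dense part of the distribution, with 236 genes between 1.9-fold and 2.1-fold, the smallest call at a log2 difference of 1.0015 and the largest gene short of it at 0.9997. Among called genes with a further measured probe, 83 of 131 had the same call from another probe.

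**Figure D1:**
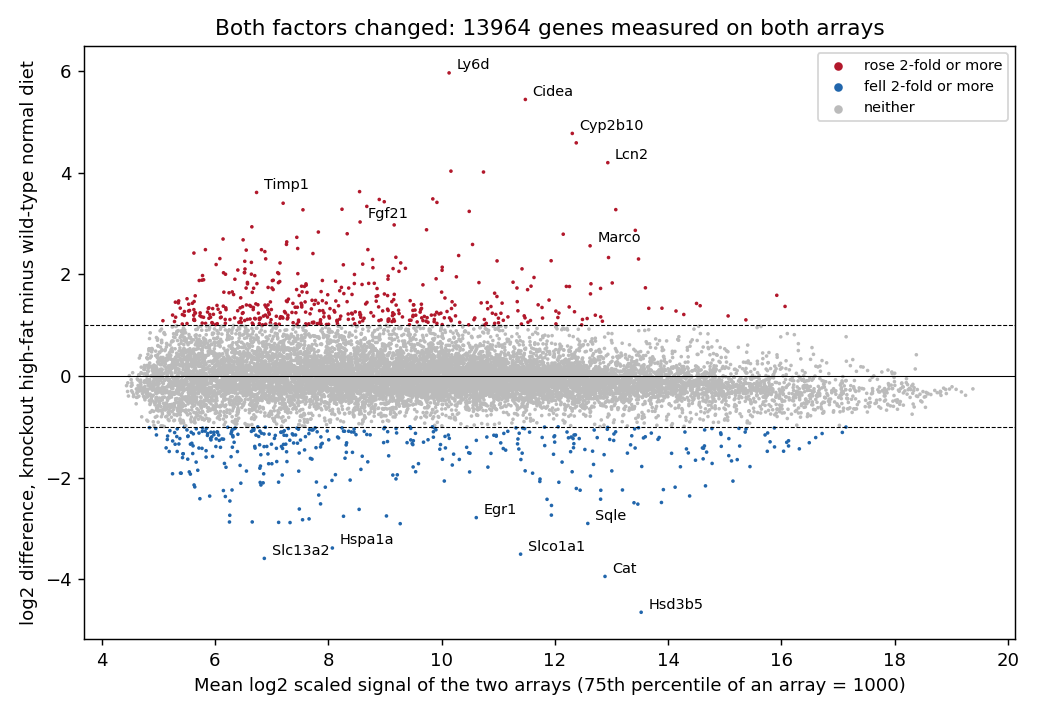
Log2 difference of CKO_HFD minus WT_ND (vertical axis) against the mean log2 scaled signal of both arrays (horizontal axis) for the 13964 genes measured on both. Each point is a gene, red where it rose by 2-fold or more (453), blue where it fell (388) and grey otherwise, with dashed lines at 2-fold. The largest measured increase is Ly6d and the largest decrease Hsd3b5, and Cat is the second lowest point.

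CKO_HFD was the brightest of the 4 arrays before scaling. Probes well above background numbered 25184 in CKO_HFD, 23997 in CKO_ND, 23757 in WT_HFD and 24580 in WT_ND, none of the spots was saturated, and all 4 arrays lay on 1 slide. Before scaling, the 75th percentile of signal stood at 1152 in CKO_HFD and between 1002.5 and 1019.1 on the other arrays. All 29 hepatocyte identity genes were well above background on both arrays, and Alb (albumin) had a signal of 546740 in CKO_HFD, 666090 in CKO_ND, 670850 in WT_HFD and 711950 in WT_ND, so the liver label held against its markers. Of 30 markers of pancreas, fat, muscle and red cells, 13 were below background on both arrays, among them Adipoq, Lep, Plin1, Prss1 and Pnlip, and 2 of the other 17 rose (Cfd and Cela1). The summed signal of all 30 was 100131 in CKO_HFD, 131842 in CKO_ND, 234646 in WT_HFD and 115555 in WT_ND. Within the lists below, up to 4 members with the largest difference are named by rule, and any other member was picked after its values were seen. Each count in a list is to be read against 4.04% risen and 3.81% fallen over all genes above background. In bulk liver, fewer cells of a type and less RNA per cell cannot be told apart.

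The largest increase among genes measured on both arrays was Ly6d, a GPI-anchored surface protein best known from lymphocytes and epithelia. Ly6d had a signal of 8876 in CKO_HFD, 511 in CKO_ND, 461 in WT_HFD and 142 in WT_ND, a log2 difference of 5.96 ± 0.21. CKO_HFD alone was high, and each singly changed liver was nearer to WT_ND than to CKO_HFD on the log scale. Sprr1a, a cornified-envelope protein that also marks injured tissue, had a signal of 1592 in CKO_HFD, 162 in CKO_ND, 418 in WT_HFD and 143 in WT_ND (3.47 ± 0.21), with CKO_HFD again far above the rest. Cgref1, a secreted regulator of cell growth, had a signal of 3079 in CKO_HFD, 452 in CKO_ND, 1191 in WT_HFD and 275 in WT_ND (3.48 ± 0.21). The calcium-binding adhesion receptor Adgrv1 had 4645 in CKO_HFD, 772 in CKO_ND, 1741 in WT_HFD and 284 in WT_ND (4.03 ± 0.21), or 1.92 with the mean of its probes. Both followed diet in their order, with the 2 high-fat livers highest. The oxysterol-binding protein Osbpl3 had 1667 in CKO_HFD, 790.0 in CKO_ND, 818 in WT_HFD and 155 in WT_ND (3.43 ± 0.21), so that CKO_ND and WT_HFD were at nearly the same level between the extremes. Rad51b, a gene of DNA repair, had a signal of 1587 in CKO_HFD, 135 in CKO_ND and 492 in WT_HFD and was below background in WT_ND, at least 53.5-fold higher in CKO_HFD than in WT_ND on its brighter probe. The log2 difference of Rad51b was 2.95 with the mean of its probes and 3.80 with normexp, both smaller than that bound. Ttc39a was above background on the high-fat arrays only, with 535 in CKO_HFD and 119.9 in WT_HFD, at least 25-fold higher in CKO_HFD than in WT_ND. Its log2 difference was 4.03 with the mean of its probes and 2.57 with normexp, and that of Sprr1a was 2.88 with normexp.

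**Figure D2:**
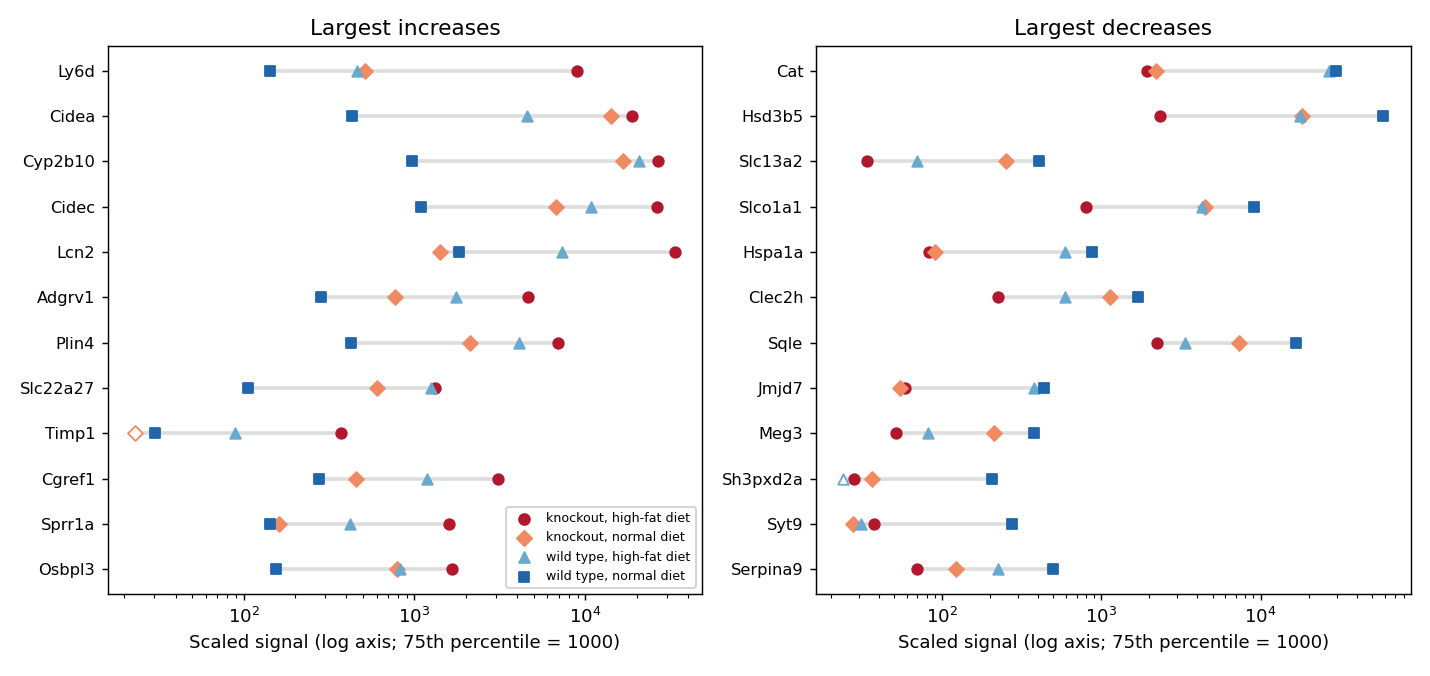
Scaled signal (log axis, 75th percentile of an array = 1000) of the 12 largest measured increases (left) and the 12 largest measured decreases (right) that stayed past 2-fold with median, quantile and cyclic loess scaling and with normexp, on each of the 4 arrays. Red circles are CKO_HFD, orange diamonds CKO_ND, light blue triangles WT_HFD and dark blue squares WT_ND, and an open symbol marks a probe not well above background. These genes were chosen by their difference between CKO_HFD and WT_ND, so the order of both arrays is given by the choice. That choice also favours CKO_HFD as the highest array, which it is for all 12 increases. The singly changed livers sit at different places along the line from gene to gene.

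Lipid droplet genes held several of the largest rises. Of 26 lipid droplet and steatosis genes above background, 9 rose and none fell (4.04% of all genes rose), the median log2 difference was 0.80 against -0.07 over all genes, and 22 of 26 were above 0. The same list had a median of 0.39 for CKO_ND minus WT_ND and 0.40 for WT_HFD minus WT_ND. Cidea and Cidec encode proteins that let small lipid droplets merge into large ones. Cidea had a signal of 18829 in CKO_HFD, 14108 in CKO_ND, 4580.1 in WT_HFD and 433 in WT_ND (5.44 ± 0.20), high on every array but WT_ND. Cidec had a signal of 26105 in CKO_HFD, 6732 in CKO_ND, 10855 in WT_HFD and 1086 in WT_ND (4.59 ± 0.20), with CKO_HFD well above either singly changed liver. Plin4, a perilipin that coats droplets, had a signal of 6876 in CKO_HFD, 2109 in CKO_ND, 4111 in WT_HFD and 426 in WT_ND (4.01 ± 0.20). Both genes thus had the same order of arrays, CKO_HFD highest, then WT_HFD, CKO_ND and WT_ND.

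Among genes of lipid uptake and esterification, Mogat1, a monoacylglycerol acyltransferase, had a signal of 1607 in CKO_HFD, 981 in CKO_ND, 880.0 in WT_HFD and 205 in WT_ND (2.97 ± 0.21). The lipoprotein receptor gene Vldlr had a signal of 851 in CKO_HFD, 634 in CKO_ND, 798 in WT_HFD and 122 in WT_ND (2.80 ± 0.22), or 2.1 with normexp, so that every array but WT_ND was at a like level. The fatty acid translocase Cd36 had a signal of 4427 in CKO_HFD and 922 in WT_ND (2.26 ± 0.20). G0s2, an inhibitor of the triglyceride lipase ATGL, had 11949 in CKO_HFD and 3399 in WT_ND (1.81 ± 0.20). The fatty acid binding protein Fabp4 had 6214 in CKO_HFD and 1622 in WT_ND (1.94 ± 0.20). Plin2, the main droplet coat of the liver, differed by 0.81 ± 0.20 and did not reach 2-fold. Plin1, the perilipin of adipocytes, was below background in both livers.

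Targets of PPARalpha, the nuclear receptor that switches on fatty acid burning, were also higher. Of 30 such genes 13 rose and none fell, and their median log2 difference was 0.53 in CKO_HFD minus WT_ND, 0.33 in CKO_ND minus WT_ND and 0.51 in WT_HFD minus WT_ND. Cyp4a14, a fatty acid omega-hydroxylase, had a signal of 26852 in CKO_HFD, 21975 in CKO_ND, 48544 in WT_HFD and 2777 in WT_ND (3.27 ± 0.20), highest in WT_HFD rather than in CKO_HFD. Fgf21, a liver hormone of fasting and nutrient stress, had a signal of 1080.1 in CKO_HFD, 169.7 in CKO_ND, 579.7 in WT_HFD and 132 in WT_ND (3.03 ± 0.21), or 2.40 with normexp. For Fgf21 the high-fat livers were both well above the normal-diet livers. The acyl-CoA thioesterase Acot3 had a signal of 2309.7 in CKO_HFD, 1238 in CKO_ND, 1697 in WT_HFD and 314 in WT_ND (2.88 ± 0.21). Vnn1, a pantetheinase, had 8589 in CKO_HFD, 4173 in CKO_ND, 6568 in WT_HFD and 1784 in WT_ND (2.27 ± 0.20). Pex11a, which divides peroxisomes, differed by 1.18 ± 0.06, Acot2 by 1.86 ± 0.24 (1.08 with normexp) and the mitochondrial carrier Ucp3 by 1.45 ± 0.21. The Cyp4a10, Cyp4a31 and Cyp4a32 genes, at 1.28, 1.33 and 1.20, are close paralogs whose probes may share targets, which was not tested.

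The enzymes of oxidation themselves moved little. Of 25 genes of ketogenesis and of fatty acid oxidation in mitochondria 1 rose (Acot2) and none fell, with a median of 0.19, and Cpt1a, the carnitine transferase that admits fatty acids to mitochondria, differed by 0.57 ± 0.06. Of 42 genes of peroxisome biogenesis and peroxisomal oxidation 5 rose, 1 of them by a bound, and none fell, with a median of -0.02, which was 0.18 with quantile and cyclic loess normalization. With normexp 3 rose. The risen members were Pex11a, Acot3, Acot4 (1.21), the carnitine acetyltransferase Crat (1.17) and Abcd2, a peroxisomal importer of very long chain fatty acids. Abcd2 had a signal of 114 in CKO_HFD, 62.9 in CKO_ND and 125 in WT_HFD and was below background in WT_ND, at least 5.32-fold higher in CKO_HFD than in WT_ND, but its log2 difference was 0.96 with normexp, short of 2-fold. Ehhadh, the bifunctional enzyme of peroxisomal beta-oxidation, had a signal of 14698 in CKO_HFD and 14645 in WT_ND (0.01 ± 0.20), a difference within the scanner error.

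Most genes of cholesterol synthesis fell. Of 25 genes of cholesterol synthesis and uptake 18 fell and none rose, against 3.81% of all genes, and 23 of 25 were below 0 with a median of -1.42. The median was -0.40 for CKO_ND minus WT_ND and -1.06 for WT_HFD minus WT_ND. Sqle, the squalene epoxidase, had a signal of 2241 in CKO_HFD, 7363 in CKO_ND, 3359 in WT_HFD and 16773 in WT_ND (-2.90 ± 0.20). Idi1, the isopentenyl-diphosphate isomerase, had a signal of 7117 in CKO_HFD, 19885 in CKO_ND, 11066 in WT_HFD and 33570 in WT_ND (-2.24 ± 0.20). Both were highest in WT_ND. Cyp51, which removes a methyl group from lanosterol, had 517 in CKO_HFD, 1361 in CKO_ND, 768 in WT_HFD and 2169 in WT_ND (-2.07 ± 0.20). All 3 genes had the same order of arrays, CKO_HFD lowest and WT_ND highest, with WT_HFD below CKO_ND.

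Falls were found from the first committed enzymes of the pathway to its late steps, but not at every step. Of the 25 genes 7 did not fall by 2-fold, the late enzymes Ebp and Sc5d among them. Hmgcs1, an early synthase of the pathway, had a signal of 19932 in CKO_HFD and 63541 in WT_ND (-1.67 ± 0.20). The mevalonate kinase Mvk differed by -1.55, the phosphomevalonate kinase Pmvk by -1.52, the decarboxylase Mvd by -1.42, the farnesyl diphosphate synthase Fdps by -1.48 and the squalene synthase Fdft1 by -1.48. Of the late enzymes, Nsdhl differed by -1.87, Msmo1 by -1.72, Tm7sf2 by -1.57, Dhcr7 by -1.34, Hsd17b7 by -1.24 and Lss by -1.20. Insig1, which holds SREBP in the endoplasmic reticulum and is itself an SREBP target, differed by -1.13, and the sterol carrier Stard4 by -1.23.

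The promoters of 3 of these genes are shown because SREBP2 acts on such genes together with the factor NF-Y. The windows run from 250 bases before to 50 after the start of the gene (RefSeq, GRCm38.p6) and were searched on both strands for the NF-Y box CCAATC and, as a sterol response element, for TCACNCCAC, and matches of the motifs did not overlap in the windows shown. Capitals mark the matches in Idi1 at chr13:8885356-8885655 (plus strand), Hmgcs1 at chr13:119690101-119690400 (plus strand) and Cyp51 at chr5:4104648-4104947 (minus strand).
Idi1: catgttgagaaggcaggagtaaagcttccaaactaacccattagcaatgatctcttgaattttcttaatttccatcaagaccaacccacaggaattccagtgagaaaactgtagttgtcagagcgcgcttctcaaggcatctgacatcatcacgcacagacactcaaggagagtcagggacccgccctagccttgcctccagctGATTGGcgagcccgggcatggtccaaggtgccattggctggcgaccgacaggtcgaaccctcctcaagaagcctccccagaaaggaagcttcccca
Hmgcs1: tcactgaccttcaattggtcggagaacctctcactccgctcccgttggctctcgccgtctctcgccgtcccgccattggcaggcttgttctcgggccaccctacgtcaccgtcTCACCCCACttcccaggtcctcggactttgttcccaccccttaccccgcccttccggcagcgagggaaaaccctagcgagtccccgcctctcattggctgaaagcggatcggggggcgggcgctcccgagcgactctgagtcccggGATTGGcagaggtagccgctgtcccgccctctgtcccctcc
Cyp51: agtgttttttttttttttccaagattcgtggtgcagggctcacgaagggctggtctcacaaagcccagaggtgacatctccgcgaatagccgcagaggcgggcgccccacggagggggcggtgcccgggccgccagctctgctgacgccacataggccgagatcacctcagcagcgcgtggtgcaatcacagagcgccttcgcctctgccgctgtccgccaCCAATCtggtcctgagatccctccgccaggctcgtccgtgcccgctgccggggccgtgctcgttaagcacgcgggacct
Of the 17 genes of the list that had a window, 14 held CCAATC (82.4%), among them 11 of the 13 that fell (84.6%), against 4924 of 27025 genes with a window (18.2%). The sterol response element was matched in 1 of the 17 (Hmgcs1), against 388 of 27025 genes (1.44%). A match is a description of letters and not a bound site.

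Fatty acid synthesis did not follow the sterol genes. The median over 28 genes of fatty acid and triglyceride synthesis was 0.02, and 1 rose while 2 fell. Elovl3, an elongase that is also male-biased in liver, had a signal of 2083 in CKO_HFD, 8018 in CKO_ND, 3813 in WT_HFD and 8887 in WT_ND (-2.09 ± 0.20). Acss2, which makes acetyl-CoA from acetate and is an SREBP target, had 12461 in CKO_HFD, 37827 in CKO_ND, 13033 in WT_HFD and 33733 in WT_ND (-1.44 ± 0.20), low on both high-fat arrays. Scd2, a stearoyl-CoA desaturase, had 839 in CKO_HFD, 361 in CKO_ND, 331 in WT_HFD and 388 in WT_ND (1.11 ± 0.21) and was high in CKO_HFD alone, at 0.98 with normexp. The fatty acid synthase Fasn differed by -0.28 ± 0.20, and Srebf1, which encodes SREBP1, by 0.33 ± 0.20. Among 24 lipoprotein and lipid transfer genes, Apoa4, an apolipoprotein that rises in fatty liver, had a signal of 29603 in CKO_HFD, 5648 in CKO_ND, 20102 in WT_HFD and 4062 in WT_ND (2.87 ± 0.20). Apom, a carrier of sphingosine 1-phosphate, had 24378 in CKO_HFD, 33465 in CKO_ND, 32289 in WT_HFD and 63434 in WT_ND (-1.38 ± 0.20). No other lipoprotein gene of the list moved by 2-fold, and the list's median, -0.25, was 0.03 and 0.04 with quantile and cyclic loess normalization.

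**Figure D3:**
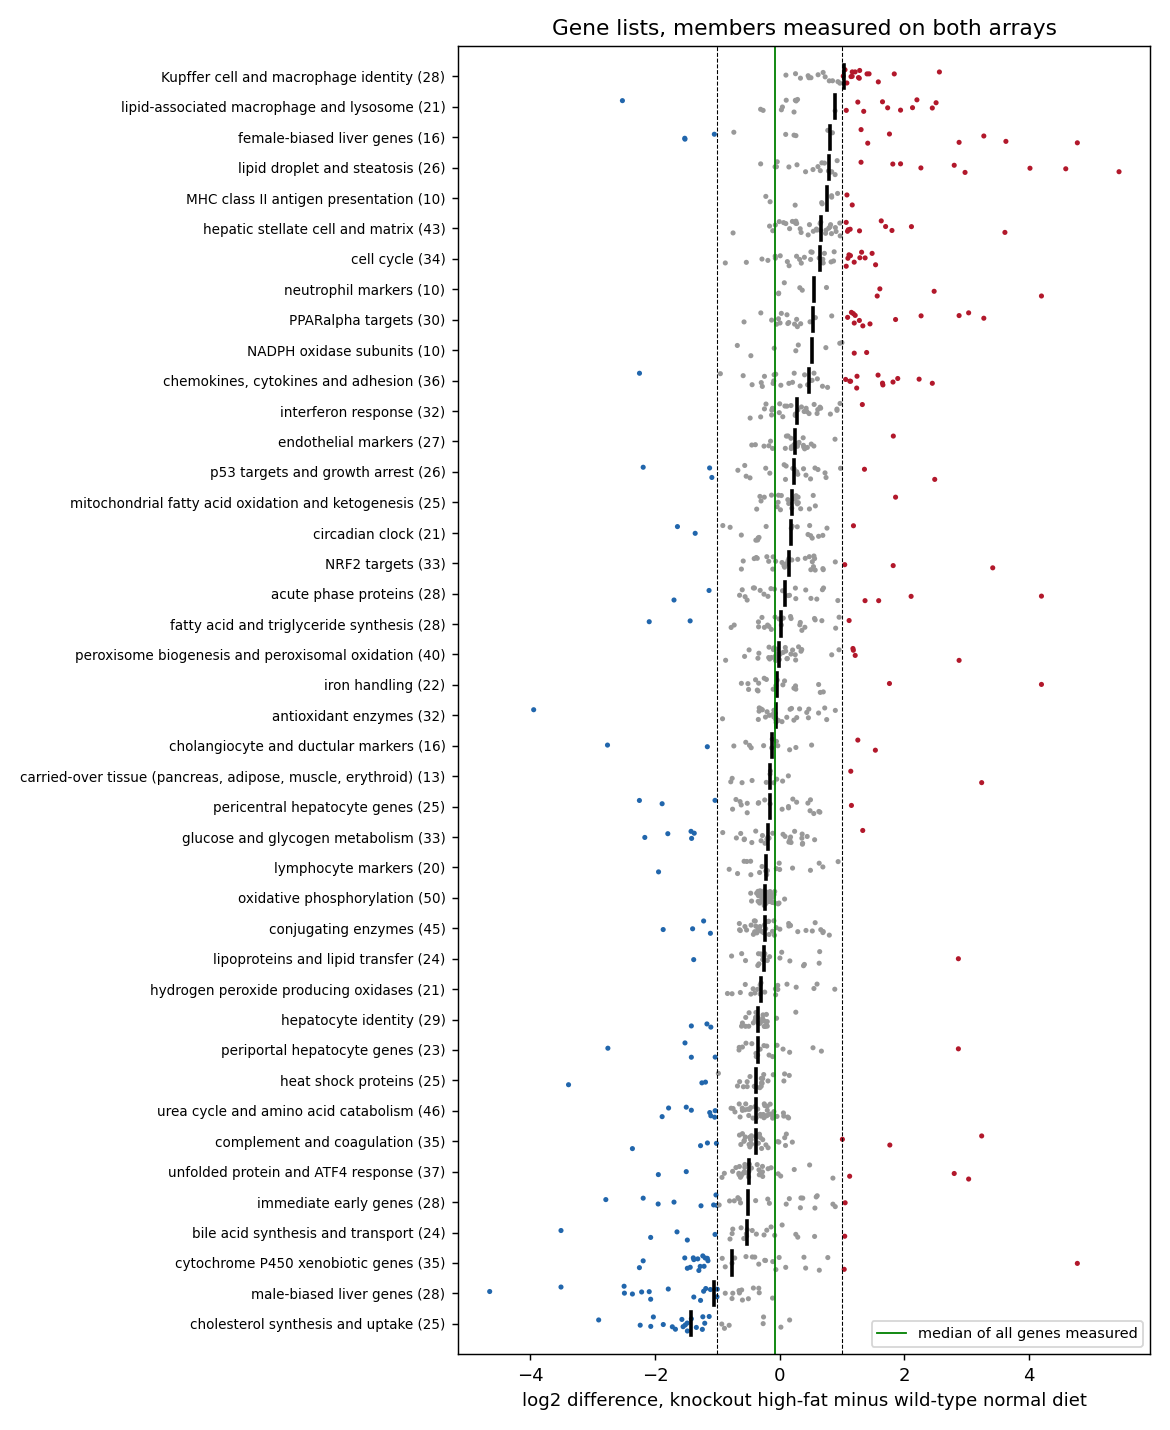
Log2 difference of CKO_HFD minus WT_ND for the members of 42 gene lists that were measured on both arrays, sorted by the median of the list (black bar), with the number of genes in brackets. Red points rose and blue points fell by 2-fold or more (dashed lines), and the green line is the median of all measured genes at -0.07. Macrophage, female-biased and lipid droplet genes are at the top, and cholesterol synthesis and male-biased genes at the bottom.

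Genes whose level in liver depends on sex moved strongly although all animals were male. Growth hormone pulses in male mice keep one set of liver genes high and another low, and the lists below hold genes known for that bias. Of 29 male-biased genes 17 fell, 1 of them by a bound, and none rose, with a median of -1.06, and all 28 measured on both arrays were below 0. The list's median was -0.54 for CKO_ND minus WT_ND and -0.69 for WT_HFD minus WT_ND, and with other scalings 14 or 15 of the genes fell. Hsd3b5, a steroid reductase of male liver, had a signal of 2349 in CKO_HFD, 18162 in CKO_ND, 17696 in WT_HFD and 59062 in WT_ND (-4.65 ± 0.20), the largest measured decrease of all. The singly changed livers were at nearly the same level of Hsd3b5, between CKO_HFD and WT_ND. Moxd1, a DBH-like monooxygenase, was below background on both knockout arrays, against a signal of 80.8 in WT_HFD and 2865 in WT_ND, and was at least 150.1-fold lower in CKO_HFD than in WT_ND, with a log2 difference of -5.45 with normexp. The organic anion carrier Slco1a1 had a signal of 799 in CKO_HFD, 4473 in CKO_ND, 4305 in WT_HFD and 9087 in WT_ND (-3.51 ± 0.20). The hydroxylase Cyp4a12a had 4543 in CKO_HFD, 17662 in CKO_ND, 6488 in WT_HFD and 25631 in WT_ND (-2.50 ± 0.20), lower on high-fat diet in both genotypes, and Cyp4a12b, its near copy, differed by -2.49. C8b, of the complement attack complex, differed by -2.36 ± 0.20, the EGF receptor gene Egfr by -1.79 ± 0.07, and Socs2, a growth hormone target that damps its signal, by -1.19 ± 0.06.

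Of 21 female-biased genes above background 11 rose, 4 of them by a bound, and 3 fell. The median over the 16 measured on both arrays was 0.81, against 0.72 for CKO_ND minus WT_ND and 0.77 for WT_HFD minus WT_ND. The risen genes were led by the Cyp2b family, which the nuclear receptor CAR also controls. Cyp2b13 had a signal of 3659 in CKO_HFD, 1196 in CKO_ND and 1868 in WT_HFD, at least 153-fold higher in CKO_HFD than in WT_ND, where the probe was not well above background at 23.9. Cyp2b9 had 1824 in CKO_HFD, 907 in CKO_ND and 1164 in WT_HFD, at least 82.5-fold higher in CKO_HFD than in WT_ND, where it too was not well above background at 22.1. With normexp the log2 differences were 5.21 for Cyp2b13 and 4.14 for Cyp2b9, smaller than either bound. Cyp2b10 had a signal of 26522 in CKO_HFD, 16517 in CKO_ND, 20721 in WT_HFD and 969.7 in WT_ND (4.77 ± 0.20), so all 3 changed livers were high for all 3 genes. The anion carrier Slc22a27 had 1320.4 in CKO_HFD, 602 in CKO_ND, 1244 in WT_HFD and 107 in WT_ND (3.63 ± 0.21), or 2.93 with normexp, and Fmo2, a flavin monooxygenase, differed by 1.41 ± 0.20. Hao2, a peroxisomal hydroxyacid oxidase that makes hydrogen peroxide, was at least 3.64-fold higher in CKO_HFD (78) than in WT_ND, with 127 in CKO_ND and 150.1 in WT_HFD, but its log2 difference was 0.63 with normexp. The fallen members were Cyp3a16 (-1.52), Cyp3a41b (-1.52) and Nipal1 (-1.05).

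The promoters of Cyp2b9 and Cyp2b13 are shown because both genes moved together and are nearly alike in sequence. The windows lie at chr7:26173159-26173458 (Cyp2b9, plus strand) and chr7:26061245-26061544 (Cyp2b13, plus strand) of GRCm38.p6 (RefSeq), and capitals mark the bases at which they differ.
Cyp2b9: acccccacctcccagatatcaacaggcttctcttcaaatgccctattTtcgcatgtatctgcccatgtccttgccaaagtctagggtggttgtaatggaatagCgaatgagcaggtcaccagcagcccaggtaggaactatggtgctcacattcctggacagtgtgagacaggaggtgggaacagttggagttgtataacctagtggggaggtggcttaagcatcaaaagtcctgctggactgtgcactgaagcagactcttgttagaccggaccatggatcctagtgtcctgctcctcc
Cyp2b13: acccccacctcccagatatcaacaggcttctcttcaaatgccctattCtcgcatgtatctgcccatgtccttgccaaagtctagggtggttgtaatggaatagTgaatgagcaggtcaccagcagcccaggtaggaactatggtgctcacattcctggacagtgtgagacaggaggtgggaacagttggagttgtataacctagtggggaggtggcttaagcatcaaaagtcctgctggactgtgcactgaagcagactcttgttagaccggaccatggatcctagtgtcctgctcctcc
The windows were the same at 298 of 300 bases (99.3%), while Cyp2b10 matched each at 223 of 311 aligned positions (71.7%). Whether each array probe reads its own transcript alone was not tested, so the values of Cyp2b9 and Cyp2b13 may not be independent.

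Other cytochrome P450 genes of drug and steroid handling were lower. Of 37 xenobiotic P450 genes 15 fell and 4 rose, 2 of the rises by a bound, with a median of -0.77. The median was 0.07 for CKO_ND minus WT_ND and -0.42 for WT_HFD minus WT_ND, and 9 genes fell with quantile and 10 with cyclic loess normalization. Cyp1a2, a pericentral enzyme that oxidises caffeine, had a signal of 3296 in CKO_HFD, 14800 in CKO_ND, 5468 in WT_HFD and 15682 in WT_ND (-2.25 ± 0.20), low on both high-fat arrays. Of the fallen genes, 11 belonged to the Cyp2c family, among them Cyp2c55 (-2.19), Cyp2c54 (-1.44), Cyp2c29 (-1.28) and Cyp2c50 (-1.21), many of which are near copies of each other. Cyp3a11, the main CYP3A enzyme of male mouse liver, had 58433 in CKO_HFD, 170190 in CKO_ND, 45260 in WT_HFD and 145350 in WT_ND (-1.31 ± 0.20). Cyp2e1, which oxidises ethanol and fatty acids and can release reactive oxygen, did not move by 2-fold. It had 438900 in CKO_HFD and 518520 in WT_ND (-0.24 ± 0.20). Of 45 conjugating enzymes 4 fell and none rose, among them the sulfotransferase Sult2a8 (-1.40), Gstp1 (-1.11) and Nat8 (-1.87).

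Genes of bile acid synthesis and transport were lower too. Of 24 such genes 5 fell and 1 rose, and the median was -0.53, against 0.00 for CKO_ND minus WT_ND and -0.13 for WT_HFD minus WT_ND. Cyp7a1, the rate-limiting enzyme of bile acid synthesis, had a signal of 1975 in CKO_HFD, 3549 in CKO_ND, 3880.4 in WT_HFD and 4054 in WT_ND (-1.04 ± 0.20), low in CKO_HFD alone and not past 2-fold in several scalings or with normexp (-0.94). Cyp7b1, of the alternative pathway, had 17675 in CKO_HFD, 37840 in CKO_ND, 36911 in WT_HFD and 74213 in WT_ND (-2.07 ± 0.20). Abcb11, the pump that moves bile salts into bile, had 21562 in CKO_HFD, 39119 in CKO_ND, 45264 in WT_HFD and 67553 in WT_ND (-1.65 ± 0.20). Cyp2c70, which makes muricholic acids, had 40273 in CKO_HFD, 63206 in CKO_ND, 66062 in WT_HFD and 112480 in WT_ND (-1.48 ± 0.20). For Cyp7b1, Abcb11 and Cyp2c70 the singly changed livers lay between CKO_HFD and WT_ND. Abcc4, an efflux pump of the blood side, had 306 in CKO_HFD, 245 in CKO_ND, 155 in WT_HFD and 149 in WT_ND (1.04 ± 0.21), and was the member that rose, short of 2-fold with normexp (0.75).

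Hydrogen peroxide defence other than catalase moved little. Of 32 antioxidant genes, Cat was the only one past 2-fold, and the median of the list was -0.06 (0.21 with quantile and 0.20 with cyclic loess normalization), against 0.02 for CKO_ND minus WT_ND and -0.04 for WT_HFD minus WT_ND. Gpx1, the main glutathione peroxidase of liver, had a signal of 309320 in CKO_HFD, 339430 in CKO_ND, 344300 in WT_HFD and 347000 in WT_ND (-0.17 ± 0.20). Prdx1, a cytosolic peroxiredoxin, had 79713 in CKO_HFD, 83366 in CKO_ND, 83835 in WT_HFD and 91754 in WT_ND (-0.20 ± 0.20). Sod1, the cytosolic superoxide dismutase, had 180370 in CKO_HFD, 229100 in CKO_ND, 210730 in WT_HFD and 222060 in WT_ND (-0.30 ± 0.20). None of them moved by 2-fold. The largest differences after Cat were Prdx4 of the endoplasmic reticulum (-0.92 ± 0.20) and the secreted Gpx3 (0.89 ± 0.21). Of 22 oxidases that make hydrogen peroxide, Hao2 alone moved by 2-fold, by a bound that normexp did not keep, and the list's median of -0.30 was 0.03 with quantile and cyclic loess normalization.

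Of 33 targets of NRF2, the factor that answers oxidants and electrophiles, 3 rose and none fell, with a median of 0.15. The median was 0.43 with quantile and 0.42 with cyclic loess normalization, each with 4 risen, while 2 rose with normexp. Under 75th percentile scaling it was 0.17 for CKO_ND minus WT_ND and -0.08 for WT_HFD minus WT_ND. Cbr3, a carbonyl reductase, had a signal of 3162 in CKO_HFD, 503 in CKO_ND, 377 in WT_HFD and 296 in WT_ND (3.42 ± 0.21), high in CKO_HFD alone. Nqo1, a quinone reductase, had 662 in CKO_HFD, 422 in CKO_ND, 366 in WT_HFD and 187 in WT_ND (1.82 ± 0.21), and Abcc4 was the third. Srxn1, which restores oxidised peroxiredoxins, differed by 0.89 ± 0.20, and Hmox1, the haem oxygenase, by -0.61 ± 0.21. Of 10 NADPH oxidase subunits, which make superoxide in phagocytes, Rac2 (1.39 ± 0.06) and Ncf4 (1.20 ± 0.20) rose, Cybb (1.00 ± 0.22) and Cyba (0.96 ± 0.20) stood just under 2-fold, and with quantile or cyclic loess normalization 4 subunits rose. Cybb had a signal of 183 in CKO_HFD, 82.6 in CKO_ND, 113 in WT_HFD and 91.9 in WT_ND, with CKO_HFD highest.

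Macrophage genes were higher in CKO_HFD and near WT_ND in both singly changed livers. Of 29 Kupffer cell and macrophage identity genes 15 rose and none fell, against 4.04% and 3.81% of all genes. Their median was 1.03, and all 28 measured on both arrays were above 0. The median was -0.14 for CKO_ND minus WT_ND and 0.21 for WT_HFD minus WT_ND. The summed signal of the list was 164195 in CKO_HFD, 74074 in CKO_ND, 95824 in WT_HFD and 81937 in WT_ND. Adgre1, the F4/80 antigen, had a signal of 3059 in CKO_HFD, 777 in CKO_ND, 1114 in WT_HFD and 856 in WT_ND (1.84 ± 0.20). Marco, a scavenger receptor, had 15319 in CKO_HFD, 1144 in CKO_ND, 2477 in WT_HFD and 2596 in WT_ND (2.56 ± 0.20). Cd14, the lipopolysaccharide co-receptor, had 915 in CKO_HFD, 220.4 in CKO_ND, 411 in WT_HFD and 306 in WT_ND (1.58 ± 0.21). For all 3 genes CKO_HFD was far above the other arrays. C1qb, a complement component made by macrophages, had 3530.1 in CKO_HFD, 1221 in CKO_ND, 1698 in WT_HFD and 1308 in WT_ND (1.43 ± 0.20). Clec4f, a lectin of Kupffer cells, had 8315 in CKO_HFD, 5511 in CKO_ND, 7777 in WT_HFD and 6007 in WT_ND (0.47 ± 0.20). Vsig4 had 7191 in CKO_HFD, 4022 in CKO_ND, 5469 in WT_HFD and 4694 in WT_ND (0.62 ± 0.20). Timd4 had 446 in CKO_HFD, 208 in CKO_ND, 227 in WT_HFD and 248 in WT_ND (0.85 ± 0.21), and none of them reached 2-fold.

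Genes of lipid-associated macrophages, the cells that gather around fat-laden hepatocytes, were higher in CKO_HFD. Of 23 genes of lipid-associated macrophages and lysosomes 12 rose, 2 of them by a bound, and 1 fell, with a median of 0.89, against -0.14 for CKO_ND minus WT_ND and 0.09 for WT_HFD minus WT_ND. With normexp background correction 9 rose and the median was 0.64. Gpnmb, a lysosomal glycoprotein of such cells, had a signal of 223 in CKO_HFD and was below background on the other 3 arrays, at least 10.4-fold higher in CKO_HFD than in WT_ND. Trem2, their lipid-sensing receptor, had 837 in CKO_HFD, 165 in CKO_ND, 292 in WT_HFD and 182 in WT_ND (2.20 ± 0.21). CKO_HFD stood apart for both. The integrin gene Itgax had 420.1 in CKO_HFD, 57.3 in CKO_ND, 98 in WT_HFD and 73.9 in WT_ND (2.51 ± 0.23). The chemokine receptor Cx3cr1 had 275 in CKO_HFD, 50.8 in CKO_ND, 100.3 in WT_HFD and 50.5 in WT_ND (2.45 ± 0.26). With normexp the log2 differences were 1.91 for Gpnmb, 1.69 for Itgax and 1.41 for Cx3cr1, and Cx3cr1 was at 1.56 with the mean of its probes. For Trem2, Itgax and Cx3cr1, CKO_HFD was the highest array and WT_HFD the second. Spp1 (osteopontin) had 1488 in CKO_HFD, 325 in CKO_ND, 435 in WT_HFD and 625 in WT_ND (1.25 ± 0.20). Lgals3 (galectin 3) had 4695 in CKO_HFD, 1260.1 in CKO_ND, 1750 in WT_HFD and 1414 in WT_ND (1.73 ± 0.20). Fabp5, a fatty acid binding protein that hepatocytes also express, went the other way with 4718 in CKO_HFD, 6903 in CKO_ND, 4263 in WT_HFD and 27116 in WT_ND (-2.52 ± 0.20), and was high in WT_ND alone. Of 10 MHC class II genes, H2-Aa (1.08 ± 0.20) and Ctss (1.16 ± 0.20) rose and none fell, with a median of 0.76.

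Chemokine, cytokine and adhesion genes were mostly dim, and 13 of 39 rose, 1 of them by a bound, while 1 fell. Their median was 0.47, against -0.27 for CKO_ND minus WT_ND and -0.05 for WT_HFD minus WT_ND, and with normexp background correction 5 rose and the median was 0.10. Ccl4, which draws in monocytes and lymphocytes, had a signal of 201 in CKO_HFD, 34.9 in CKO_ND, 64.9 in WT_HFD and 57 in WT_ND (1.82 ± 0.24). Ccl7, a monocyte chemokine, had 107 in CKO_HFD, 36.2 in WT_HFD and 28.9 in WT_ND (1.89 ± 0.35) and was below background in CKO_ND. CKO_HFD was well above every other array for both chemokines. Ccr2, the receptor of inflammatory monocytes, had 126 in CKO_HFD, 44.6 in CKO_ND, 69.8 in WT_HFD and 40.3 in WT_ND (1.65 ± 0.29). Tlr1, a lipopeptide receptor, had 217 in CKO_HFD, 37.9 in CKO_ND, 30.1 in WT_HFD and 46.1 in WT_ND (2.24 ± 0.25). Il1b, the interleukin 1 beta gene, had 373 in CKO_HFD, 127 in CKO_ND, 207 in WT_HFD and 158 in WT_ND (1.24 ± 0.07). CKO_HFD was the highest array for each of these genes. With normexp Tlr1 was at 1.16 and Ccl7 at 0.69, short of 2-fold. The macrophage markers moved with them, and their part in these rises was not tested. Cxcl1, a neutrophil attractant that hepatocytes make under stress, had 2560.1 in CKO_HFD, 1784 in CKO_ND, 4696 in WT_HFD and 12171 in WT_ND (-2.25 ± 0.20), with WT_ND highest.

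Of 13 neutrophil markers 6 rose in CKO_HFD, 2 of them by a bound, with none lower by 2-fold. Their median was 0.56, and with normexp background correction 4 rose and the median was 0.29. The summed signal of the list was 108505 in CKO_HFD, 67746 in CKO_ND, 82623 in WT_HFD and 69016 in WT_ND. Without Lcn2, which hepatocytes also secrete, it was 74956 in CKO_HFD, 66330 in CKO_ND, 75306 in WT_HFD and 67188 in WT_ND, so that Lcn2 carried most of the difference and CKO_HFD was no longer the highest array. S100a8 had a signal of 1002 in CKO_HFD, 179 in CKO_ND, 412 in WT_HFD and 329 in WT_ND (1.61 ± 0.21). S100a9, its partner in calprotectin, had 3468 in CKO_HFD, 634 in CKO_ND, 1355 in WT_HFD and 1173 in WT_ND (1.56 ± 0.20). Chil3, a chitinase-like lectin of myeloid cells, had 221 in CKO_HFD, 38 in CKO_ND, 68.3 in WT_HFD and 39.8 in WT_ND (2.48 ± 0.28). CKO_HFD was the highest array for all 3, and Chil3 was at 1.28 with normexp. Ltf (lactoferrin) had a signal of 76.5 in CKO_HFD and was below background on the other arrays, at least 3.58-fold higher in CKO_HFD than in WT_ND. Mpo (myeloperoxidase) was above background on the knockout arrays, with 85.7 in CKO_HFD and 79.1 in CKO_ND, at least 4-fold higher in CKO_HFD than in WT_ND. With normexp Ltf was at 0.56 and Mpo at 0.73, both short of 2-fold. The defining markers Cxcr2, Mmp8, Mmp9 and Fcnb were below background in both livers. Lcn2 (lipocalin 2) had 33549 in CKO_HFD, 1416 in CKO_ND, 7317 in WT_HFD and 1828 in WT_ND (4.20 ± 0.20).

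Lymphocyte markers did not rise. Of 23 above background none rose and 2 fell, 1 of them by a bound, and the median was -0.22. The summed signal of the 27 markers on the array was 31762 in CKO_HFD, 35001 in CKO_ND, 46556 in WT_HFD and 52057 in WT_ND. Without the T cell co-receptor gene Cd4 it was 6127 in CKO_HFD, 6440 in CKO_ND, 6061 in WT_HFD and 7092 in WT_ND, so that Cd4 carried most of the difference. Cd4 had 25635 in CKO_HFD, 28561 in CKO_ND, 40495 in WT_HFD and 44965 in WT_ND (-0.81 ± 0.20) on its brighter probe. The mean of its 2 probes gave -0.46, and whether the brighter probe reads T cells was not tested. Cd79a, of the B cell receptor, was below background in CKO_HFD, CKO_ND and WT_HFD, against a signal of 119 in WT_ND, and was at least 6.22-fold lower in CKO_HFD than in WT_ND (-1.41 with normexp). Jchain, of antibody-secreting cells, had 143 in CKO_HFD, 469.6 in CKO_ND, 372 in WT_HFD and 548 in WT_ND (-1.94 ± 0.21). The markers Cd8a, Klrb1c and Ncr1 were below background in both livers. Of 33 interferon-response genes 1 rose, against 4.04% of all genes, namely Ifi44 (1.33 ± 0.21, or 0.97 with normexp). Up to 3 rose under other scalings, and the list's median was 0.27.

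Acute phase proteins did not move as a set, with 4 of 28 higher and 2 lower by 2-fold and a median of 0.09. Saa1, a serum amyloid of hepatocytes, had a signal of 107340 in CKO_HFD, 18673 in CKO_ND, 54670 in WT_HFD and 35721 in WT_ND (1.59 ± 0.20). Saa2 had 110090 in CKO_HFD, 19983 in CKO_ND, 60734 in WT_HFD and 42642 in WT_ND (1.37 ± 0.20). The promoter windows of Saa1 and Saa2 were the same at 287 of 301 aligned positions (95.3%), and whether their probes tell them apart was not tested. Orm3, an orosomucoid, had 5689 in CKO_HFD, 1575 in CKO_ND, 1975 in WT_HFD and 1320.3 in WT_ND (2.11 ± 0.20). For these genes, as for Lcn2, CKO_HFD was the highest array. Socs3, which damps interleukin 6 signalling, had 2487 in CKO_HFD, 2967 in CKO_ND, 5788 in WT_HFD and 8055 in WT_ND (-1.70 ± 0.20). The metallothionein Mt2 had 72811 in CKO_HFD, 45336 in CKO_ND, 129860 in WT_HFD and 159750 in WT_ND (-1.13 ± 0.20). Both were lowest on the knockout arrays. Of 36 complement and coagulation genes 4 fell and 3 rose, and the median was -0.39, which was -0.10 with quantile normalization. Cfd (adipsin), a complement protease made chiefly by fat cells, had 4415 in CKO_HFD, 366 in CKO_ND, 3275 in WT_HFD and 468 in WT_ND (3.24 ± 0.20) and was high on both high-fat arrays, while the fat cell genes Adipoq and Lep were below background.

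Matrix and stellate cell genes were higher in CKO_HFD. Of 44 such genes 10 rose and none fell, with a median of 0.66, against -0.14 for CKO_ND minus WT_ND and 0.14 for WT_HFD minus WT_ND. With normexp background correction 7 rose and the median was 0.39. The summed signal of all 46 genes of the list was 256271 in CKO_HFD, 205254 in CKO_ND, 235841 in WT_HFD and 223451 in WT_ND. Timp1, an inhibitor of matrix proteases, had a signal of 372 in CKO_HFD, 89.5 in WT_HFD and 30.4 in WT_ND (3.61 ± 0.30) and was below background in CKO_ND, so that CKO_HFD was far above the rest, with a log2 difference of 2.04 with normexp. Col1a1, the main fibrillar collagen, had 1177 in CKO_HFD, 175 in CKO_ND, 595 in WT_HFD and 272 in WT_ND (2.11 ± 0.21). Col1a2 had 5286 in CKO_HFD, 1374 in CKO_ND, 2243 in WT_HFD and 1629 in WT_ND (1.70 ± 0.20). Col3a1 had 3448 in CKO_HFD, 789 in CKO_ND, 1436 in WT_HFD and 1115 in WT_ND (1.63 ± 0.20). The collagens shared 1 order, CKO_HFD highest, then WT_HFD, WT_ND and CKO_ND. Postn (periostin), a matrix protein of activated fibroblasts, had 722 in CKO_HFD, 311 in CKO_ND, 386 in WT_HFD and 207 in WT_ND (1.80 ± 0.21). Acta2, the smooth muscle actin of activated stellate cells, had 501 in CKO_HFD, 329 in CKO_ND, 254 in WT_HFD and 449 in WT_ND (0.16 ± 0.06). Lrat, which stores retinol in quiescent ones, had 1122 in CKO_HFD, 649 in CKO_ND, 955 in WT_HFD and 716 in WT_ND (0.65 ± 0.20), and neither reached 2-fold. Of 27 endothelial markers 1 rose, against 4.04% of all genes, and the median was 0.24. The risen marker was the hyaluronan receptor gene Lyve1, with 789 in CKO_HFD, 279.6 in CKO_ND, 791 in WT_HFD and 223 in WT_ND (1.82 ± 0.21). Of 18 cholangiocyte and ductular markers 2 rose and 2 fell, Krt23 (1.53) and Spp1 being higher and Tff3 (-2.76) and Sox9 (-1.16, or -0.88 with normexp) lower, and Epcam was below background in both livers.

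Cell cycle genes were dim and higher in CKO_HFD. Of 39 above background 11 rose, 1 of them by a bound, and none fell, with a median of 0.65, against 0.01 for CKO_ND minus WT_ND and 0.24 for WT_HFD minus WT_ND. With normexp background correction 1 rose and the median was 0.37. Mki67, the Ki-67 antigen of dividing cells, had a signal of 398 in CKO_HFD, 132 in CKO_ND, 245 in WT_HFD and 143 in WT_ND (1.48 ± 0.21). The mitotic kinase gene Plk1 had 149 in CKO_HFD, 56.7 in CKO_ND, 89.3 in WT_HFD and 51.5 in WT_ND (1.54 ± 0.27). Both were lowest on the normal-diet arrays. Prc1, of the mitotic spindle, had 159.6 in CKO_HFD, 51.6 in CKO_ND, 109 in WT_HFD and 61.7 in WT_ND (1.37 ± 0.23). Cenpe, a kinetochore motor, had 105 in CKO_HFD, 43.7 in CKO_ND, 57.2 in WT_HFD and 42.2 in WT_ND (1.31 ± 0.27). All 4 were highest in CKO_HFD, with WT_HFD second. With normexp Plk1 was at 0.61, Prc1 at 0.69 and Cenpe at 0.51, all short of 2-fold. Macrophage and matrix genes were higher on the same array, and their part in these rises was not tested. Of 26 p53 targets 2 rose and 3 fell (1 fell with normexp). Cdkn1a, which encodes the cell cycle inhibitor p21, had a signal of 984 in CKO_HFD, 255 in CKO_ND, 732 in WT_HFD and 176 in WT_ND (2.49 ± 0.07) on its brighter probe, with both high-fat arrays high. The mean of its 2 probes gave -0.61, so the direction of Cdkn1a depends on the probe, and the other probe was not well above background on both arrays. Gadd45g, a growth arrest gene, had 8355 in CKO_HFD, 12278 in CKO_ND, 36475 in WT_HFD and 38121 in WT_ND (-2.19 ± 0.20), low on both knockout arrays.

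**Figure D4:**
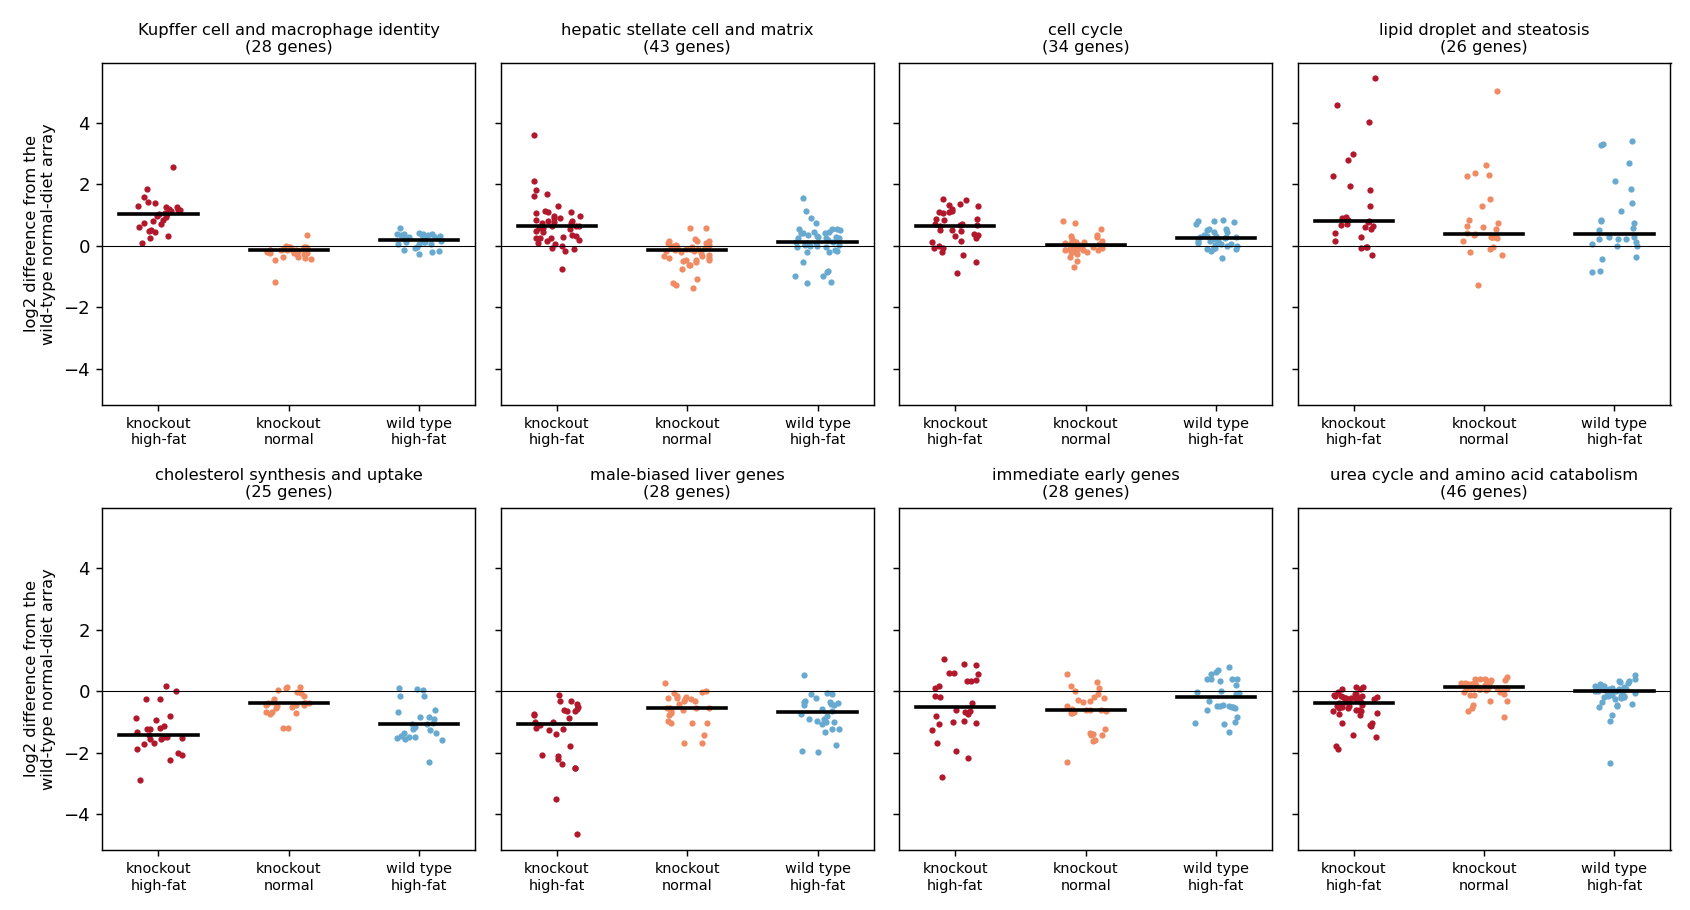
Log2 difference from the WT_ND array of the members of 8 gene lists measured on both CKO_HFD and WT_ND, for CKO_HFD (red), CKO_ND (orange) and WT_HFD (light blue). Each point is a gene and the black bar is the median of the list, and all columns share the WT_ND array. The macrophage, matrix and cell cycle medians are 1.03, 0.66 and 0.65 for CKO_HFD and between -0.14 and 0.24 for the singly changed livers, while lipid droplet, cholesterol and male-biased genes are displaced in all 3 livers.

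Hepatocyte genes were lower by a small amount over many members. Of 29 hepatocyte identity genes 3 fell and none rose, with a median of -0.35 and 28 below 0, but the median was -0.04 with quantile and -0.02 with cyclic loess normalization. The summed signal of the list was 4828987 in CKO_HFD, 6009963 in CKO_ND, 5846002 in WT_HFD and 6221844 in WT_ND. Cps1, the first enzyme of the urea cycle, had a signal of 15254 in CKO_HFD, 32677 in CKO_ND, 30646 in WT_HFD and 40743 in WT_ND (-1.42 ± 0.20). Tat, the tyrosine aminotransferase, had 28682 in CKO_HFD, 56458 in CKO_ND, 60033 in WT_HFD and 61683 in WT_ND (-1.10 ± 0.20). Foxa3, a liver transcription factor, had 1296 in CKO_HFD, 2005 in CKO_ND, 2567 in WT_HFD and 2910.3 in WT_ND (-1.17 ± 0.20). CKO_HFD was the lowest array for all 3. Of 46 genes of the urea cycle and amino acid catabolism 8 fell and none rose, with a median of -0.39, against 0.12 for CKO_ND minus WT_ND and -0.01 for WT_HFD minus WT_ND, and 4 fell with quantile normalization. Acmsd, of tryptophan breakdown, had 388 in CKO_HFD, 979 in CKO_ND, 739 in WT_HFD and 1434 in WT_ND (-1.89 ± 0.20). Csad, of taurine synthesis, had 6397 in CKO_HFD, 14054 in CKO_ND, 4312 in WT_HFD and 22004 in WT_ND (-1.78 ± 0.20). Cth, which makes cysteine and hydrogen sulfide, had 15606 in CKO_HFD, 43649 in CKO_ND, 31444 in WT_HFD and 44113 in WT_ND (-1.50 ± 0.20). Csad was low on both high-fat arrays, and Cth was low in CKO_HFD. None of 50 nuclear-encoded oxidative phosphorylation genes moved by 2-fold, and their median of -0.23 was 0.05 with quantile and 0.02 with cyclic loess normalization.

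Zonation genes moved singly. The median was -0.35 over 23 periportal genes, of which 4 fell and 1 rose, and -0.15 over 25 pericentral genes, of which 3 fell and 1 rose. With quantile normalization the medians were -0.06 and 0.10, so the sign over the pericentral genes depended on the scaling. Cdh1, the E-cadherin gene, had a signal of 201 in CKO_HFD, 392 in CKO_ND, 319 in WT_HFD and 1356 in WT_ND (-2.76 ± 0.07) and was high in WT_ND alone. Slc1a2, a glutamate carrier of pericentral cells, had 2633 in CKO_HFD, 5047 in CKO_ND, 9926 in WT_HFD and 9733 in WT_ND (-1.89 ± 0.20), low on both knockout arrays. Slc1a2 lies on chromosome 2, as Cat does, so sequence inherited along with the knockout allele cannot be told apart from catalase loss. The fallen pericentral genes were Cyp1a2, Slc1a2 and Cyp7a1, and the risen one was Aldh3a2 (1.15), a fatty aldehyde dehydrogenase and also a PPARalpha target.

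Glucose genes included 5 that fell and 1 that rose of 33, with a median of -0.19, which was 0.08 with quantile and 0.05 with cyclic loess normalization. Igfbp1, a secreted IGF-binding protein that insulin lowers, had a signal of 12226 in CKO_HFD, 10204 in CKO_ND, 27363 in WT_HFD and 54783 in WT_ND (-2.16 ± 0.20). Irs2, an insulin receptor substrate that insulin also lowers, had 3153 in CKO_HFD, 4479 in CKO_ND, 5123 in WT_HFD and 8398 in WT_ND (-1.41 ± 0.20). Igfbp2 had 15440 in CKO_HFD, 34329 in CKO_ND, 21572 in WT_HFD and 41382 in WT_ND (-1.42 ± 0.20). Ppp1r3g, a glycogen-targeting subunit of protein phosphatase, had 969 in CKO_HFD, 2848 in CKO_ND, 1553 in WT_HFD and 3363 in WT_ND (-1.79 ± 0.20). Both were lowest on the high-fat arrays.

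Several genes of acute stress fell. Of 28 immediate early genes 8 fell and 1 rose, and the median was -0.51, against -0.62 for CKO_ND minus WT_ND and -0.21 for WT_HFD minus WT_ND, and 6 fell with quantile, cyclic loess or normexp settings and 5 with the percentile over probes above background on all arrays. Egr1, a zinc finger factor induced within minutes by many stimuli, had a signal of 596 in CKO_HFD, 829.7 in CKO_ND, 2017 in WT_HFD and 4117 in WT_ND (-2.79 ± 0.20). Junb, an AP-1 subunit, had 74.2 in CKO_HFD, 121 in CKO_ND, 114 in WT_HFD and 287 in WT_ND (-1.95 ± 0.22). Fos, its partner, had 118 in CKO_HFD, 94.6 in CKO_ND, 159 in WT_HFD and 282 in WT_ND (-1.26 ± 0.07). For these genes WT_ND was the highest array. Among 25 heat shock genes the median was -0.37, and 3 fell while none rose. The inducible HSP70 gene Hspa1a had 83.2 in CKO_HFD, 90.1 in CKO_ND, 595 in WT_HFD and 871 in WT_ND (-3.39 ± 0.22). Dnajb1, its HSP40 partner, had 9390.1 in CKO_HFD, 9339 in CKO_ND, 16559 in WT_HFD and 22308 in WT_ND (-1.25 ± 0.20). Both were low on both knockout arrays and high on both wild-type arrays. With normexp Junb was at -1.32 and Hspa1a at -2.63.

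Of 37 genes of the unfolded protein and ATF4 response 3 rose (4.04% over all genes) and 2 fell (3.81%), with a median of -0.49. Asns (asparagine synthetase) had a signal of 304 in CKO_HFD, 503 in CKO_ND, 215 in WT_HFD and 1170 in WT_ND (-1.95 ± 0.20), with WT_ND highest. Psat1, of serine synthesis, had 145 in CKO_HFD, 42.5 in CKO_ND, 46.1 in WT_HFD and 66.7 in WT_ND (1.12 ± 0.24), with CKO_HFD highest. Fgf21 and Vldlr were the other risen members. With normexp, or with the mean of all probes of a gene, these 2 alone rose and Psat1 did not. Of 21 circadian clock genes 2 fell and 1 rose. Nr1d1 (REV-ERB alpha) had 586 in CKO_HFD, 1522 in CKO_ND, 826 in WT_HFD and 1828 in WT_ND (-1.64 ± 0.20). Noct (nocturnin) had 6469.6 in CKO_HFD, 10067 in CKO_ND, 18715 in WT_HFD and 16560 in WT_ND (-1.36 ± 0.20). Usp2, a clock-driven ubiquitin protease, had 4242 in CKO_HFD, 5092 in CKO_ND, 5055 in WT_HFD and 1869 in WT_ND (1.18 ± 0.20). The sources used here do not give the hour at which livers were taken.

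Of 22 iron-handling genes Lcn2 and Hamp2 rose and none fell. Hamp2, a copy of the hepcidin gene, had a signal of 9014 in CKO_HFD, 34198 in CKO_ND, 19342 in WT_HFD and 2661 in WT_ND (1.76 ± 0.20), highest in CKO_ND. Hamp, hepcidin itself, had 38724 in CKO_HFD, 98431 in CKO_ND, 59080 in WT_HFD and 46015 in WT_ND (-0.25 ± 0.20) and also had its highest value in CKO_ND. Whether the probes tell these near copies apart was not tested.

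Some of the largest decreases belonged to no list. Slc13a2, a dicarboxylate and citrate carrier, had a signal of 33.7 in CKO_HFD, 251 in CKO_ND, 69.8 in WT_HFD and 406 in WT_ND (-3.59 ± 0.29), low on both high-fat arrays. Clec2h, a C-type lectin, had 225 in CKO_HFD, 1139 in CKO_ND, 590.5 in WT_HFD and 1692 in WT_ND (-2.91 ± 0.21). Serpina9, a serine protease inhibitor, had 70.1 in CKO_HFD, 123 in CKO_ND, 226 in WT_HFD and 499 in WT_ND (-2.83 ± 0.22). CKO_HFD was lowest for both. Meg3, an imprinted long noncoding RNA, had 51.4 in CKO_HFD, 213 in CKO_ND, 82.2 in WT_HFD and 379 in WT_ND (-2.88 ± 0.24), again low on high-fat diet. Syt9 (synaptotagmin 9) had 37.3 in CKO_HFD, 27.6 in CKO_ND, 31 in WT_HFD and 273 in WT_ND (-2.87 ± 0.25). Sh3pxd2a, a podosome scaffold, had 28.2 in CKO_HFD, 36.2 in CKO_ND and 207 in WT_ND (-2.88 ± 0.30), with WT_HFD below background. For Syt9 and Sh3pxd2a the WT_ND array alone was high. Sh3pxd2a was at -0.91 with the mean of its probes, short of 2-fold. With normexp the differences were -2.23 for Slc13a2, -2.05 for Meg3, -2.20 for Serpina9, -1.86 for Syt9 and -1.65 for Sh3pxd2a. Adgrf1, an adhesion receptor, was below background in CKO_HFD and had 168 in CKO_ND, 127 in WT_HFD and 1023 in WT_ND, at least 53.6-fold lower in CKO_HFD than in WT_ND. The olfactory receptor gene Olfr902 was below background on both high-fat arrays, with 143 in CKO_ND and 313 in WT_ND, at least 16.4-fold lower in CKO_HFD than in WT_ND. With normexp Adgrf1 was at -3.87 and Olfr902 at -2.91, smaller than either bound.

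A further 2 of the large decreases went with genotype alone and lay on the chromosome that carries Cat. Jmjd7, a Jumonji-domain gene on chromosome 2, had a signal of 59 in CKO_HFD, 54.1 in CKO_ND, 376 in WT_HFD and 436 in WT_ND (-2.89 ± 0.23). Capn3, a calpain protease gene also on chromosome 2, was below background on both knockout arrays, against 186 in WT_HFD and 278 in WT_ND, at least 14.5-fold lower in CKO_HFD than in WT_ND on its brighter probe. Its log2 difference was -2.31 with the mean of its probes and -2.46 with normexp, both smaller than that bound, and Jmjd7 was at -2.04 with normexp. Both knockout arrays were low and both wild-type arrays high for each gene. For these genes, as for Slc1a2, the loss of catalase and sequence inherited along with the knockout allele cannot be told apart here.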

How the data were processed

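Liver RNA was measured on 1-colour arrays (Cy3) of the Agilent 44K mouse type, 4 arrays on 1 slide, with 1 array per group. Per the file headers, the deposited intensity values come from Feature Extraction 11.5.1.1, whose processed signal is background-subtracted on a linear scale. The authors extracted values with GeneSpring GX, per the series' design text. The deposited table of the series holds the same intensity, uncentred: 99.7% of its values on each array lay within 1% of the scanner's, with column medians of 89.16 (CKO_HFD), 72.38 (CKO_ND), 75.87 (WT_HFD) and 79.87 (WT_ND).

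Control and outlier-flagged spots were left out, spots of a probe were averaged, and the log2 processed signal of the deposited intensity was scaled to the array's 75th percentile over 39429 probes. Accessions were matched to RefSeq genes (GRCm38.p6), which named 27508 probes for 20886 genes, and the brightest probe stands for a gene. With 1 array per group a rule of size replaced any test, and the number of arrays limits the precision. The rule was tested on simulated data with scanner error only, which held no spread between animals and no calls by a bound. The members and gene lists were chosen with earlier results of these data known. Genes were named by a rule: Cat, the 12 largest measured changes in each direction past 2-fold under median, quantile, cyclic loess and normexp settings, the 4 largest bounds in each direction, and up to 4 members of each of 42 lists with the largest difference. Predicted loci were not named, and some genes are not reported here. Normexp (offset 50) used median spot signals. Tools were Python 3.11.15 (numpy 2.4.6, pandas 2.3.3, matplotlib 3.10.9) and R 4.3.3 (limma 3.58.1).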

Additional observations from a re-analysis of the deposited data

Results flagged for a closer look

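Hamp2, a hepcidin gene copy, moved in opposite directions with diet in the 2 genotypes. Its log2 difference was -1.92 for CKO_HFD minus CKO_ND and 2.86 for WT_HFD minus WT_ND. With 1 array per group the difference was not tested.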

How the results depend on the processing

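No paired analysis was possible because each group had 1 array, and no array could be left out. The 609 genes higher and 575 lower in CKO_HFD were 268 and 331 with normexp background correction, an alternative chosen after seeing the data because the mean spot signals it was planned on are not in the files used here. At 1.5-fold 1478 genes were higher and 1483 lower, and at 3-fold 223 and 223. Under the other scalings, the deposited table, flagged spots kept, the mean of all probes and genes measured on both arrays only, the counts lay between 453 and 734 higher and between 388 and 576 lower. The difference of Cdkn1a was -0.61 with the mean of its probes, against 2.49 on the brighter probe. The list medians of lipoproteins (-0.25), hydrogen peroxide oxidases (-0.30) and oxidative phosphorylation (-0.23) were 0.029, 0.026 and 0.048 with quantile and 0.036, 0.028 and 0.019 with cyclic loess normalization. The cause was not tested. The summed signals of lists without their most different member were added after seeing the data. Across these settings 340 list medians and 1283 values of named genes stayed near the value reported, while 32 list medians and 60 gene values moved further. The limit for a gene was wider than its scanner error: Adgrv1, at 4.03 ± 0.21, counted as near with 3.70 under normexp. The medians of the antioxidant, glucose, pericentral, peroxisome, iron, circadian and carried-over tissue lists, all closer to 0 than the typical scanner error of 0.20, also changed sign under at least 1 setting. Signal over background limits dim genes most: 715 genes were well above background in CKO_HFD only and 412 in WT_ND only.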

Other observations

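Probes with no gene name in the RefSeq table fell more often than they rose. Of 6512 such probes well above background in CKO_HFD or WT_ND, 181 were higher and 348 lower by 2-fold or more in CKO_HFD, against 609 higher and 575 lower among named genes. Named genes were counted by their brightest probe and unnamed probes singly. With normexp the named genes were 268 higher and 331 lower, so their balance depended on the processing. Transcripts behind the unnamed probes were not identified here.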
